A study of Mus musculus with 48 samples.

Results

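The Krüppel-like factors are DNA-binding proteins with zinc fingers at their carboxyl end, and 8 of their genes are described here: Klf2, Klf3, Klf4, Klf6, Klf7, Klf9, Klf10 and Klf13. They were taken by gene symbol from a table of 34617 usable genes, in which 17 symbols begin with Klf, and all 8 were present. RNA had been sequenced from ER-Hoxb8 cells, mouse bone marrow progenitors that divide as long as a fusion of the estrogen receptor's hormone-binding domain with the homeobox protein Hoxb8 is active. Each of 24 clones gave a monocyte library, which the labels call monocytic cells and mark Minus, and a progenitor library, which the labels call GMP cells (granulocyte-monocyte progenitors) and mark Plus. All clones therefore carry the Hoxb8 fusion, and the labels name RPMI medium with serum, antibiotics and stem cell factor (SCF) for their growth, with no time of maturation, strain or age. A clone is a line grown from a single cell, and each contributed 1 library to each state, so the errors below measure the spread between clones.

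Levels are TPM, the share of a library's transcripts that a gene takes after correction for gene length. They carry no record of how many reads were sequenced, so depth is unknown. Between 9436 and 10717 genes reached 1 TPM in monocyte libraries and between 8240 and 11030 in progenitor libraries. The labelled states were checked against marker genes. Of 7 monocyte markers 6 rose in monocytes and Ccr2 fell, and of 6 progenitor markers 5 fell, among them Cd34 and Flt3. All 7 neutrophil markers rose too, with a summed level of 346 to 183354 TPM in monocyte libraries (median 72984), against 2.84 to 10686 TPM in progenitor libraries (median 26.8), although Ly6g stayed under 1 TPM in every progenitor library. Eosinophil markers rose (3 of 3 tested), and markers of mast cells and basophils (4 of 5) and of erythroid cells and megakaryocytes (3 of 3 tested) fell. Cma1, the other mast cell marker, did not pass over all clones. Mast cell and basophil markers summed to 3096 TPM in the monocyte library of clone 19, against at most 3022 TPM in progenitor libraries. Those of erythroid cells and megakaryocytes summed to 601 TPM in the monocyte library of clone 8, against at most 403 TPM in progenitor libraries. Of the lymphoid markers Il7r rose, and of the endothelial and stromal markers Pecam1 and Pdgfrb fell. The stromal marker Col1a1, too low on average to be tested, went the other way. It averaged 1.24 TPM in monocytes and 0.0110 TPM in progenitors and was higher in the monocytes of 23 of 24 clones. The lymphoid markers Cd3e, Cd79a and Ncr1 and the endothelial and stromal markers Cdh5, Kdr and Col3a1 stayed under 1 TPM in every monocyte library. Some libraries stood apart: the progenitor library of clone 21 had 23247 genes listed at 0, in that of clone 24 only 8240 genes reached 1 TPM, and mitochondrial transcripts took 25.1% of the TPM in the monocyte library of clone 26. The monocyte library of clone 22 had the highest sum of progenitor markers among monocytes, 8890 TPM against a median of 1076 TPM. No progenitor library was higher, the highest being 8473 TPM in clone 21. Clones 15 to 26 (n = 11) and clones 1 to 13 (n = 13) had separated in earlier results of these data, with no batch named in the labels, so values are also given within each set. The mast cell marker Cma1 rose in clones 15 to 26 (log2 fold change 2.33) and did not pass in clones 1 to 13 (-1.44). Ms4a2 did not pass in clones 15 to 26 (-0.39) and fell in clones 1 to 13 (-3.18). In bulk RNA, fewer cells of a type and less RNA per cell cannot be told apart.

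Krüppel-like factors bind GC-rich boxes and CACCC boxes, sequence elements that they share with the related Sp factors. Klf2, Klf4, Klf6 and Klf7 act mainly as activators of transcription, Klf3 recruits the corepressor CtBP, and Klf9, Klf10 and Klf13 recruit the corepressor Sin3 through a short amino-terminal helix. In the myeloid lineage Klf4 is known as a promoter of monocyte formation in mice, Klf2 as a brake on the activation of monocytes and macrophages, and Klf6 as a gene of inflammatory macrophages. Klf2 is a known target of the kinase Erk5 (gene Mapk7) and its MEF2 partners, Klf10 of transforming growth factor beta, and Klf9 of the glucocorticoid and thyroid hormone receptors.

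Upstream sequences of 4 genes are shown here. Klf2, Klf6 and Klf13 are 3 of the genes that were higher in the monocytes of every clone, as was Klf7, which is not shown, and Klf9 fell. Each is the stretch of 150 bases that ends right before the annotated start of the gene, read 5′ to 3′ on the gene's strand from the RefSeq promoter table of mouse build GRCm38.p6, which held 7 of the 8 genes. Capitals mark a MEF2-site match (CTANNNNTAG) in Klf2 and GC boxes (GGGCGG or its reverse complement) in Klf6 and Klf13, while the stretch of Klf9 has neither.
Klf2, chr8:72318883-72319032, plus strand: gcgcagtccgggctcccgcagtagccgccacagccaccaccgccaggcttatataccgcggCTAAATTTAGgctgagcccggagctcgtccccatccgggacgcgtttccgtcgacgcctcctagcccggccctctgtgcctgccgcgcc
Klf6, chr13:5861332-5861481, plus strand: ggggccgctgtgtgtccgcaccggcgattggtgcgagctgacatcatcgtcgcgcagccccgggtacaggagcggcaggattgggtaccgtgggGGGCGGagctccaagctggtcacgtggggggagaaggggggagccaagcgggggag
Klf13, chr7:63938916-63939065, minus strand: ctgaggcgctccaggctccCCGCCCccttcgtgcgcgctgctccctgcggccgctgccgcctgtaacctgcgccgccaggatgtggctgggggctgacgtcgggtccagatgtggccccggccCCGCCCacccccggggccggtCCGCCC
Klf9, chr19:23141076-23141225, plus strand: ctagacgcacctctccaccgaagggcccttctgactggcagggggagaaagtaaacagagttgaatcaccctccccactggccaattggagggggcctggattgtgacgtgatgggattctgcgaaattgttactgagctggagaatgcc
A match is only a run of letters and not a proven site, and where no match was found nothing follows about the factor.

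In the 250 bases before the RefSeq start, searched on both strands, the Klf2 promoter alone among these 7 held the MEF2 letters, 118 bases before that start, against 3.20% of 32851 promoters of the table. A GC box was found in the windows of Klf2, Klf3, Klf4, Klf6, Klf7 and Klf13 and in 32.7% of all promoters, with 6 copies in Klf3, 4 in Klf4 and 3 in Klf13. The CACCC box was found in Klf2, Klf3, Klf7, Klf9 and Klf13, with 5 copies in Klf3, and in 52.0% of all promoters. In Klf3 and Klf13 a CACCC box shared a base with a GC box. None of the 7 windows held the cyclic AMP response element TGACGTCA, a CArG box or the glucocorticoid response element GNACANNNTGTNC, which stood in 1.55%, 1.47% and 0.387% of all promoters. On mouse build mm10 the genes lie on 8 different chromosomes, all annotated as protein-coding: Klf2 at chr8:72319033-72321656, Klf3 at chr5:64803388-64832901, Klf4 at chr4:55527143-55532466, Klf6 at chr13:5861482-5870394, Klf7 at chr1:64029447-64122282, Klf9 at chr19:23141226-23168134, Klf10 at chr15:38291463-38300706 and Klf13 at chr7:63886351-63938915. Exons of Gm20033 overlap Klf3 and exons of Gm13748 and Gm26649 overlap Klf7. The sources used here do not say whether reads were assigned by strand, so reads of these partners cannot be told apart from those of Klf3 and Klf7.

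The first comparison asked how the Klf transcripts of the monocyte culture differed from those of the progenitor culture of the same clone. Of the 8 genes 7 rose and Klf9 fell, in a test with limma on log2(TPM + 1) that ran over all 11072 genes with a mean of at least 1 TPM, with clone as a block and Benjamini-Hochberg adjustment (threshold 0.05). Of all genes tested, 68.8% changed, 32.4% upward and 36.5% downward. The median log2 fold change was 1.60 over the 8 Klf genes and -0.06 over all genes. All 8 passed the filter on low values, but Klf2, Klf4 and Klf7 averaged under 1 TPM in progenitors and Klf9 in monocytes, so these genes passed through the state in which they were high. In the limma fit with no filter the same counts were called, 7 upward and 1 downward. Because 1 is added to each TPM before the logarithm, the log2 fold changes of such low genes come out smaller than the ratios of their TPM. Some listed genes named below also averaged under 1 TPM in 1 state and passed the filter through the other.

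Among the activators, Klf2 changed most. Klf2 levels ran from 3.90 to 72.4 TPM in monocyte libraries with a median of 23.7, against 0 to 4.90 TPM in progenitor libraries with a median of 0.482. The highest monocyte values were those of clones 21 and 20 (69.6 TPM in the second) and the lowest was that of clone 22, while clone 1 held the highest progenitor value and clone 21 was listed at 0. Klf2 was higher in the monocyte library of all 24 clones, and 23 of 24 monocyte libraries lay above every progenitor library. Its mean was 26.4 ± 16.6 TPM in monocytes and 0.758 ± 1.06 TPM in progenitors (SD, n = 24 each), a ratio of 34.8, and the limma log2 fold change was 3.87 (SE 0.17, adjusted p = 7.03e-17). By the size of its log2 fold change Klf2 stood at rank 119 of the 3584 genes that rose.

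Klf6, an early-response factor that turns on inflammatory genes in macrophages, had the highest mean of the 8 in monocytes. It ran from 6.86 to 62.8 TPM in monocyte libraries with a median of 32.2, against 0.577 to 7.37 TPM in progenitor libraries with a median of 3.81. Clones 15 and 20 were highest and clone 22 was lowest as monocytes, clone 24 was lowest as a progenitor, and the groups overlapped by 1 monocyte library. The means were 32.3 ± 16.7 TPM in monocytes and 3.92 ± 1.499 TPM in progenitors (SD, n = 24 each), with a limma log2 fold change of 2.62 (SE 0.17, adjusted p = 2.13e-13) and the same direction in 24 of 24 clones.

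Klf4 and Klf7 changed in the same direction at far lower levels. Klf4 ran from 0.226 to 4.21 TPM in monocyte libraries with a median of 2.13, against 0 to 0.928 TPM in progenitor libraries with a median of 0.432. The monocyte libraries of clones 19 and 17 were the lowest and the highest, and 18 of 24 lay above every progenitor library. Its limma log2 fold change was 1.03 (SE 0.13, adjusted p = 5.92e-08), with clone 9 the sole clone against the direction at 0.388 TPM as a monocyte and 0.412 TPM as a progenitor. Klf7, known best for its part in neuron growth, ran from 1.17 to 7.74 TPM in monocyte libraries with a median of 2.26, against 0.0813 to 1.56 TPM in progenitor libraries with a median of 0.334. Clones 20 and 21 stood highest as monocytes (7.74 and 5.83 TPM), clone 26 stood highest as a progenitor, and 20 of 24 monocyte libraries lay above every progenitor library. Klf7 was higher in the monocyte library of 24 of 24 clones, with a limma log2 fold change of 1.27 (SE 0.12, adjusted p = 6.66e-10).

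**Figure D1:**
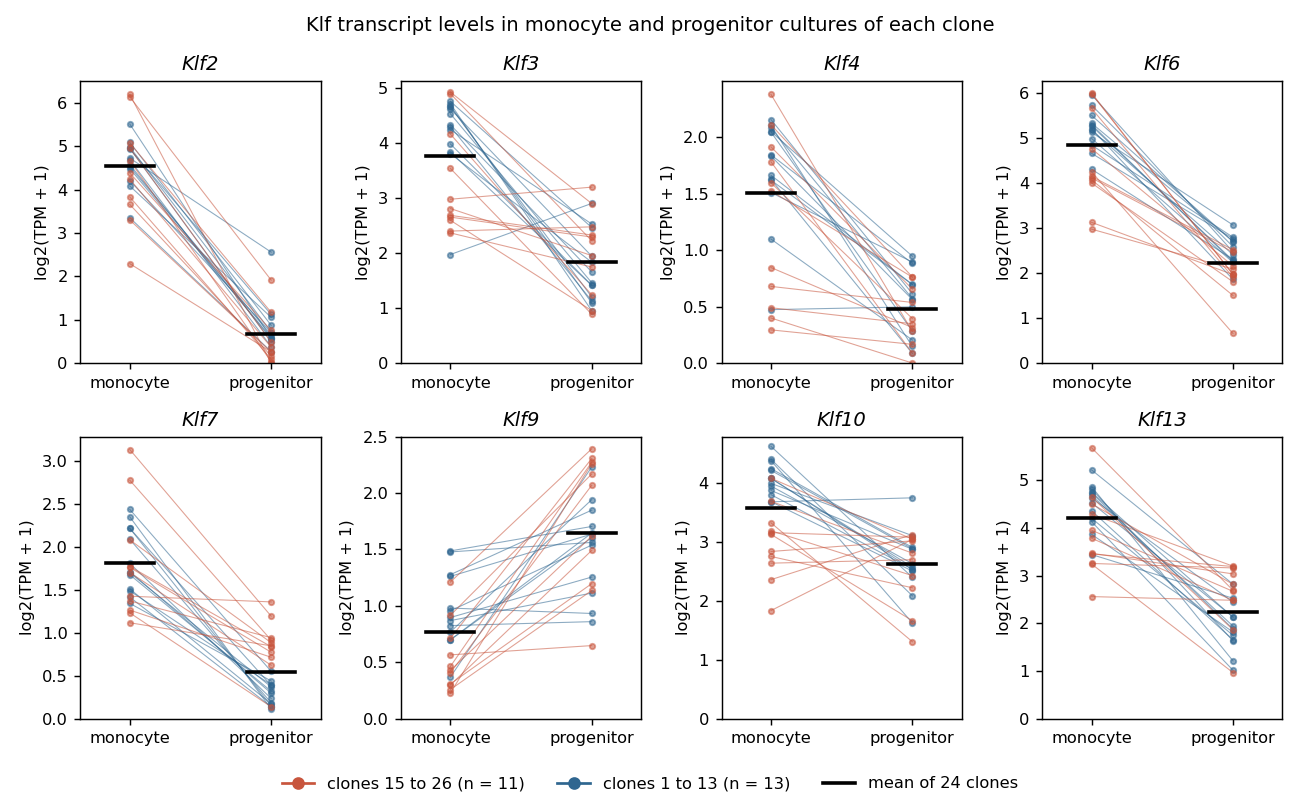
Levels of the 8 Klf genes as log2(TPM + 1), 1 panel per gene, with the monocyte library of each clone at the left and its progenitor library at the right, joined by a line (red, clones 15 to 26, n = 11; blue, clones 1 to 13, n = 13; black bars, means of 24 clones). Lines slope down to the progenitor in all 24 clones for Klf2, Klf6, Klf7 and Klf13, and up in 23 of 24 for Klf9.

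Klf3, the member that recruits CtBP, ran from 2.93 to 29.5 TPM in monocyte libraries with a median of 15.9, against 0.852 to 8.20 TPM in progenitor libraries with a median of 2.46. The groups overlapped more than those of Klf2 or Klf6: 16 of 24 monocyte libraries lay above every progenitor library, and clones 8, 16 and 18 went the other way. Clone 8 had 2.93 TPM as a monocyte and 6.49 TPM as a progenitor, whereas in clone 18 the values lay close together at 4.29 TPM as a monocyte and 4.58 TPM as a progenitor. The means were 15.4 ± 8.89 TPM in monocytes and 3.01 ± 2.02 TPM in progenitors (SD, n = 24 each), with a limma log2 fold change of 1.93 (SE 0.25, adjusted p = 1.48e-07).

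Among the members that recruit Sin3, Klf13 and Klf10 rose and Klf9 fell. Klf13, known as an activator of the chemokine gene Ccl5 in T cells, ran from 4.89 to 50.2 TPM in monocyte libraries with a median of 19.02, against 0.953 to 8.17 TPM in progenitor libraries with a median of 3.91. All 24 clones were higher as monocytes, clone 20 most of all, and only clone 26, the lowest, fell within the progenitor range. The means were 19.7 ± 10.1 TPM in monocytes and 4.17 ± 2.25 TPM in progenitors (SD, n = 24 each), and the limma log2 fold change was 1.98 (SE 0.21, adjusted p = 2.34e-09). Klf10 ran from 2.57 to 23.7 TPM in monocyte libraries with a median of 12.5, against 1.47 to 12.5 TPM in progenitor libraries with a median of 5.35. This was the weakest split of the risers, with 12 of 24 monocyte libraries above every progenitor library and clones 8, 18, 19, 22 and 23 against the direction. In clone 19 the monocyte had 2.57 TPM and the progenitor 7.26 TPM. The limma log2 fold change of Klf10 was 0.97 (SE 0.19, adjusted p = 6.15e-05).

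Klf9 ran from 0.170 to 1.80 TPM in monocyte libraries with a median of 0.671, against 0.566 to 4.25 TPM in progenitor libraries with a median of 2.09. It was lower in the monocyte library of 23 of 24 clones, with clone 7 nearly level at 0.973 TPM as a monocyte and 0.908 TPM as a progenitor, and 9 monocyte libraries lay below every progenitor library. The means were 0.759 ± 0.488 TPM in monocytes and 2.30 ± 1.10 TPM in progenitors (SD, n = 24 each), so the progenitor mean was 3.03 times the monocyte mean. The limma log2 fold change was -0.88 (SE 0.13, adjusted p = 1.51e-06). For none of the 8 genes did the monocyte and progenitor ranges separate wholly, which 126 genes, 1.14% of those tested, did with every monocyte library on top. All 8 calls and their directions held in limma with each clone left out in turn, without clones 21, 24 and 26, and under both other scalings of the libraries.

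The order of the levels differed between states. In monocytes the means ran Klf6, Klf2, Klf13, Klf3, Klf10, Klf7, Klf4 and Klf9 from high to low. Neighbours in this order were rarely apart beyond the spread of the clones: Klf6 was above Klf2 in 17 of 24 clones, Klf2 above Klf13 in 15, Klf13 above Klf3 in 19, Klf3 above Klf10 in 17 and Klf7 above Klf4 in 13. The step from Klf10 to Klf7 was the clear one, present in 24 of 24 clones, and Klf4 was above Klf9 in 22. In progenitors the order was Klf10, Klf13, Klf6, Klf3, Klf9, Klf2, Klf7 and Klf4. There Klf10 was above Klf13 in 15 of 24 clones, Klf13 above Klf6 in 11, Klf6 above Klf3 in 16, Klf3 above Klf9 in 16, Klf9 above Klf2 in 21, Klf2 above Klf7 in 14 and Klf7 above Klf4 in 13. Only the step from Klf9 down to Klf2 held in more than 16 clones.

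Summed over the 8 genes, Klf transcripts ran from 34.7 to 228 TPM in monocyte libraries (median 115), against 4.61 to 35.1 TPM in progenitor libraries (median 19.99). Klf2 took 23.5% ± 9.43 of that sum in monocytes and 3.50% ± 4.02 in progenitors, and Klf6 took 27.9% ± 4.77 in monocytes and 20.3% ± 7.64 in progenitors (SD, n = 24 each). Klf10 and Klf9 held smaller shares in monocytes: Klf10 11.7% ± 4.38, against 27.3% ± 5.82 in progenitors, and Klf9 0.804% ± 0.729, against 10.96% ± 2.30 in progenitors. For Klf13, Klf3, Klf7 and Klf4, each gene's own mean share in monocytes lay within 1 SD of its share in progenitors. The most abundant of the 8 was Klf6 in 15 monocyte libraries, Klf2 in 6, Klf13 in 2 and Klf10 in 1, whereas among progenitors it was Klf10 in 12, Klf13 in 6, Klf6 in 5 and Klf3 in 1. Shares within a library do not depend on how libraries are scaled to each other.

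**Figure D2:**
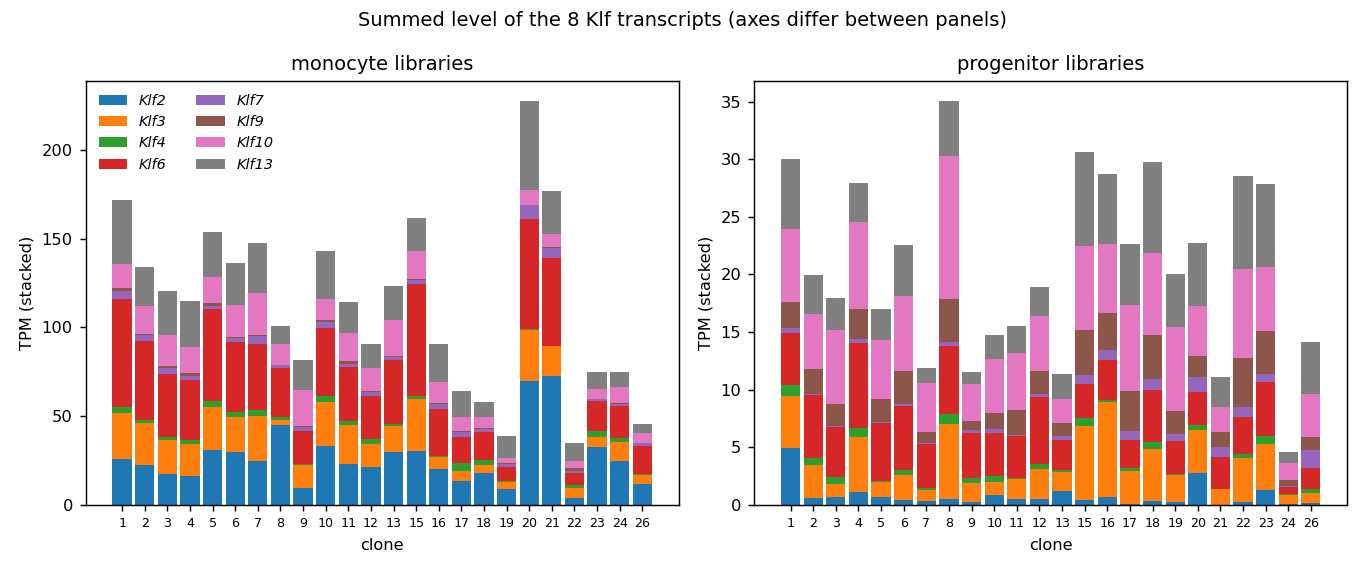
Stacked TPM of the 8 Klf genes in each clone, monocyte libraries at the left and progenitor libraries at the right, with axes that differ between the panels. The sum ran from 34.7 to 228 TPM in monocytes and from 4.61 to 35.1 TPM in progenitors, and clones 20 and 21 stood high as monocytes through Klf2, Klf6 and, in clone 20, Klf13.

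The second comparison asked whether the change differed between clones 15 to 26 and clones 1 to 13. Klf13 and Klf10 rose less in clones 15 to 26. The limma log2 fold change of Klf13 was 1.30 in clones 15 to 26 and 2.56 in clones 1 to 13, a difference of -1.26 (SE 0.34, adjusted p = 0.0193 for the interaction over all genes). Levels were not tested between the sets within a state. For Klf13 monocytes averaged 16.7 ± 12.6 TPM in clones 15 to 26 (SD, n = 11) and 22.3 ± 6.93 TPM in clones 1 to 13 (SD, n = 13), and progenitors averaged 5.55 ± 2.32 TPM in clones 15 to 26 and 2.999 ± 1.41 TPM in clones 1 to 13. For Klf10 the limma log2 fold change was 0.41 in clones 15 to 26, where it did not pass (adjusted p = 0.241), and 1.43 in clones 1 to 13, a difference of -1.02 (SE 0.33, adjusted p = 0.0467). Klf10 monocytes averaged 7.69 ± 3.73 TPM in clones 15 to 26 (SD, n = 11) and 16.2 ± 3.53 TPM in clones 1 to 13 (SD, n = 13), while progenitors averaged 5.46 ± 2.23 TPM in clones 15 to 26 and 5.65 ± 2.51 TPM in clones 1 to 13. Thus 2 of 8 Klf genes passed, both negative, where 9.79% of all genes passed with a negative sign and 11.5% with either sign.

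The other 6 genes did not pass. The fall of Klf9 was -1.25 in clones 15 to 26 and -0.56 in clones 1 to 13, a difference of -0.69 (SE 0.23, limma adjusted p = 0.0539). Klf3 rose by 1.26 in clones 15 to 26, against 2.50 in clones 1 to 13 (difference -1.24, SE 0.46, limma adjusted p = 0.0736), and Klf7 rose by 0.94 in clones 15 to 26, against 1.55 in clones 1 to 13 (difference -0.61, SE 0.22, limma adjusted p = 0.0710). In the progenitors Klf7 averaged 0.824 ± 0.377 TPM in clones 15 to 26 (SD, n = 11) and 0.226 ± 0.116 TPM in clones 1 to 13 (SD, n = 13). Klf2 rose by 3.93 in clones 15 to 26, against 3.82 in clones 1 to 13, with a difference of 0.12 (SE 0.35, limma adjusted p = 0.854). Klf6 rose by 2.55 in clones 15 to 26, against 2.69 in clones 1 to 13, with a difference of -0.14 (SE 0.35, limma adjusted p = 0.827), and the difference for Klf4 was -0.27 (SE 0.25, limma adjusted p = 0.499). A p that misses the threshold does not show equal changes. Within clones 15 to 26 alone 6 of the 8 genes rose and Klf9 fell, where 17.8% of all genes rose, and within clones 1 to 13 alone 7 rose and Klf9 fell, where 38.8% of all genes rose.

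Scaling and single clones changed some of these calls. The median difference over all genes was -0.29, and with median-of-ratios scaling, which sets that median at -0.00, Klf13 stood at -0.98 (limma adjusted p = 0.0133), Klf10 at -0.73 (limma adjusted p = 0.0358) and Klf9 passed at -0.43 (limma adjusted p = 0.0496). The call of Klf13 held with each clone left out in turn (limma adjusted p from 0.00455 to 0.0442), but that of Klf10 ended without any 1 of 18 clones (0.00867 to 0.0920 over the 24 fits). Klf3, Klf7 and Klf9 passed with Klf10 and Klf13 in limma without clones 21, 24 and 26 (adjusted p 0.0120, 0.0258 and 0.00377), and also without clone 8, 21 or 24 alone, so the count of 2 was 1 to 5 across these fits. The neutrophil markers moved with the sets as well: their sum ran from 346 to 183354 TPM in monocytes of clones 15 to 26 (median 15103) and from 36938 to 149530 TPM in monocytes of clones 1 to 13 (median 83027), and 4 of 7 had a smaller rise in clones 15 to 26 that passed the same limma test. Mitochondrial transcripts took 8.45 to 16.7% of progenitor TPM in clones 15 to 26 and 3.44 to 8.38% in clones 1 to 13. The part of these in the Klf differences was not tested.

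**Figure D3:**
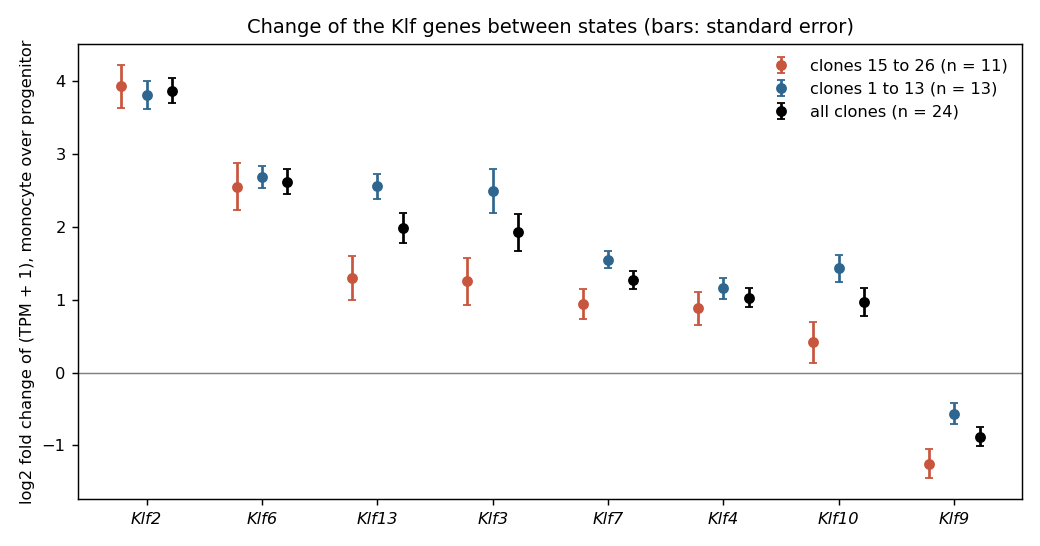
Log2 fold change of each Klf gene, monocyte over progenitor, with its standard error, in clones 15 to 26 (red, n = 11), clones 1 to 13 (blue, n = 13) and all clones (black, n = 24). Red lies below blue for 7 of the 8 genes, all but Klf2, and the difference passed the test for Klf13 (1.30 and 2.56) and Klf10 (0.41 and 1.43) only.

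The third comparison asked whether a clone that was high in a Klf transcript as a progenitor was also high as a monocyte. None of the 8 genes passed, where 4.33% of 10473 genes did (one-sided permutation test of the Pearson correlation of log2(TPM + 1), 100000 pairings, Benjamini-Hochberg over all genes). An unadjusted p under 0.05 was found for 1 of the 8, Klf2, and for 2052 of the 10473 genes. Klf2 had r = 0.350 over 24 clones (permutation p = 0.0427, adjusted p = 0.236) and Spearman's rho = 0.383 (permutation p = 0.0320). That correlation was 0.464 within clones 15 to 26, 0.162 within clones 1 to 13 and 0.254 without clones 1 and 20, the farthest from the median. Klf4 had r = 0.343 (permutation p = 0.0506, adjusted p = 0.257) and rho = 0.271 (permutation p = 0.101), with 0.267 without clones 11 and 21, 0.429 within clones 15 to 26 and 0.117 within clones 1 to 13. For the other 6 genes r lay between -0.27 for Klf3 and 0.261 for Klf6. Within clones 1 to 13 r was -0.557 for Klf3 and -0.564 for Klf10. Within clones 15 to 26 it was 0.0958 for Klf3 and -0.191 for Klf10. The one-sided test could not call a negative relation. Clone 8 is an example: its progenitor had the highest Klf10 of all (12.5 TPM) and the second highest Klf3 (6.49 TPM), whereas its monocyte had the lowest Klf3 of all (2.93 TPM). That monocyte library stood apart among those of clones 1 to 13. It had the fewest genes at 1 TPM (9461) and the highest mitochondrial share (11.1%). The part of this in its Klf3 level was not tested.

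The fourth comparison asked whether the Klf genes varied together among clones within a state. Each Klf gene was correlated with every other gene over the 24 libraries of a state (two-sided permutation test of 100000 pairings, Benjamini-Hochberg over all genes for each Klf gene), and a pair of Klf genes was counted when it passed in the families of both. In monocytes 10 of 28 pairs passed, all positive. The share of all genes that passed with Klf2, Klf3, Klf4, Klf6, Klf7, Klf9, Klf10 and Klf13 was 21.7, 38.1, 14.8, 40.6, 32.8, 19.8, 17.1 and 35.7% in monocytes, so many genes varied together there. TPM of a library share a total, and all values of a clone share its library.

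Klf3, Klf6 and Klf13 varied together. Klf3 and Klf6 had r = 0.822 in monocytes (permutation p = 1e-05, the smallest that 100000 pairings give; adjusted p = 0.000189) and rho = 0.877 (permutation p = 1e-05), with r = 0.900 within clones 15 to 26, 0.557 within clones 1 to 13 and 0.880 without the 2 clones farthest in Klf3. Klf3 and Klf13 had r = 0.801 (permutation p = 1e-05, adjusted p = 0.000172) and rho = 0.830 (permutation p = 1e-05), with 0.720 within clones 15 to 26, 0.849 within clones 1 to 13 and 0.807 without the 2 clones farthest in Klf3. Klf7 joined through Klf13, with r = 0.794 (permutation p = 1e-05, adjusted p = 0.000394), rho = 0.807 (permutation p = 2e-05), 0.894 within clones 15 to 26, 0.723 within clones 1 to 13 and 0.773 without the 2 clones farthest in Klf7. Klf2 and Klf6 had r = 0.759 (permutation p = 3e-05, adjusted p = 0.00173) and rho = 0.703 (permutation p = 9e-05), with 0.871 within clones 15 to 26, 0.462 within clones 1 to 13 and 0.669 without the 2 clones farthest in Klf2. The remaining pairs that passed were Klf6 with Klf13 (r = 0.757), Klf10 (0.681) and Klf7 (0.628), Klf3 with Klf10 (0.678) and Klf7 (0.580), and Klf2 with Klf7 (0.519). Klf6 with Klf10 had an r of 0.770 within clones 15 to 26 and -0.13 within clones 1 to 13, and Klf2 with Klf7 had 0.720 within clones 15 to 26 and -0.11 within clones 1 to 13. With each set centred the calls of Klf6 with Klf10, Klf3 with Klf10 and Klf2 with Klf7 ended (adjusted p 0.101, 0.0983 and 0.123). Without the 2 farthest clones all of these but Klf6 with Klf13 ended (adjusted p 0.054 to 0.585). Klf2 with Klf7 had a rho of only 0.299 (permutation p = 0.156) and an r of 0.321 without the 2 clones farthest in Klf2. Klf4 and Klf9 passed with no other Klf gene in monocytes, the highest being with each other at r = 0.506 (permutation p = 0.0123, adjusted p = 0.0662; rho = 0.448, permutation p = 0.0297).

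In progenitors 10 of 28 pairs passed as well, led by Klf9 with Klf13 (r = 0.868, permutation p = 1e-05, adjusted p = 4.6e-05; rho = 0.836, permutation p = 2e-05), Klf9 with Klf10 (r = 0.826) and Klf3 with Klf9 (r = 0.804). Klf9 with Klf13 held at 0.905 within clones 15 to 26, 0.868 within clones 1 to 13 and 0.810 without the 2 clones farthest in Klf9. Their background was high: the share of all genes that passed with Klf2, Klf3, Klf4, Klf6, Klf7, Klf9, Klf10 and Klf13 was 0, 59.9, 6.78, 12.6, 48.7, 70, 58.5 and 71.6%. With median-of-ratios scaling none of the 10 positive pairs passed, and Klf6 passed negatively with Klf7 (r = -0.61) and Klf13 (r = -0.50). In monocytes 10 positive pairs passed under that scaling too. Without the 2 farthest clones the count was 5 in monocytes and 7 in progenitors, and with each set of clones centred it was 7 in monocytes and 15 in progenitors.

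**Figure D4:**
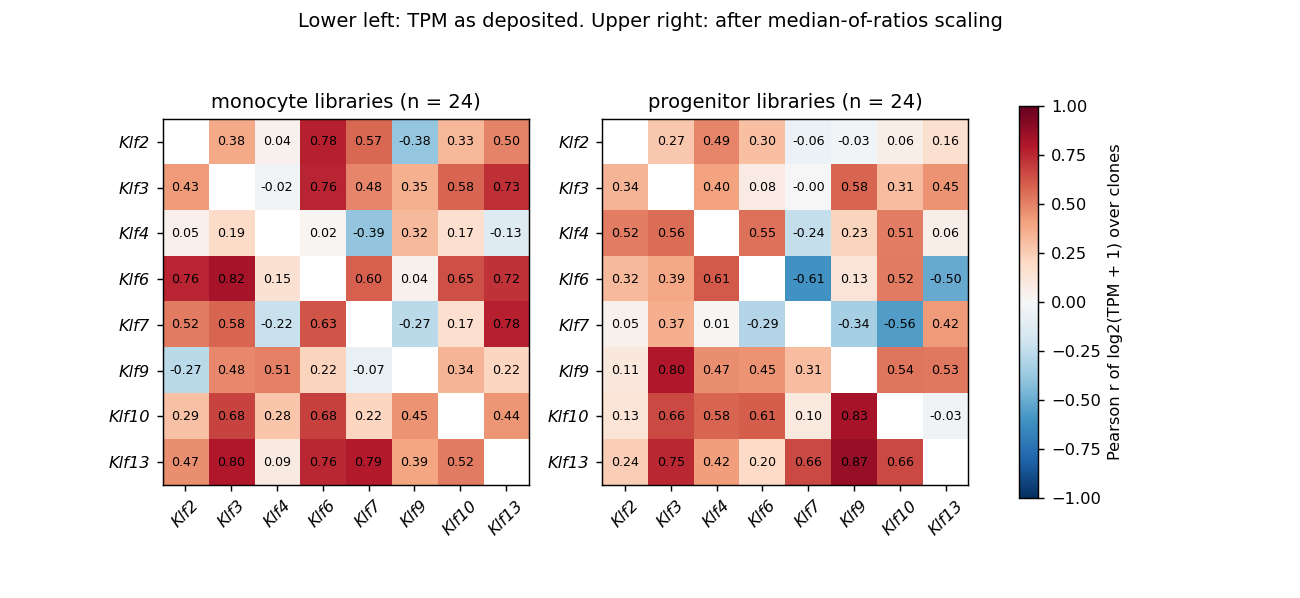
Pearson correlation of log2(TPM + 1) over 24 clones for each pair of Klf genes, in monocyte libraries (left) and progenitor libraries (right), with deposited TPM below the diagonal and median-of-ratios scaling above it. In monocytes both triangles show the pairs of Klf3, Klf6, Klf7 and Klf13 in red, whereas in progenitors the red of Klf9 with Klf13 (0.868) is paler above the diagonal.

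The genes most like each Klf gene over the 24 monocyte libraries, among genes with a mean of at least 10 TPM there, were also listed. Klf6 was most like Fam134b (r = 0.942), Zfp36, which encodes an mRNA-destabilising protein (r = 0.940), and Alox5ap, which encodes the 5-lipoxygenase activating protein (r = 0.922). Klf2 was most like Anxa2 (r = 0.908), Dhrs1 (0.879) and Snx20 (0.864), Klf3 like Tmod3 (0.932), Wdr37 (0.925) and the leukocyte integrin chain Itgb2 (0.923), and Klf13 like Hipk1 (0.946), Ankrd44 (0.926) and Lims1 (0.925). Klf7 was most like Il16 (0.888), Mob3a (0.883) and the phagocyte oxidase subunit Ncf1 (0.882), and Klf10 like Arl6ip1 (0.851) and the chemokine receptor Ccr1 (0.850). Klf4 was most like Emc8 (0.839), the proteasome subunit Psma3 (0.829) and Gm10108 (0.816), and Klf9 like Tmem248 (0.876), the chaperone Hsp90ab1 (0.869) and Abcc1 (0.840). The relations named here had a permutation p of 1e-05 or 2e-05 and stayed positive in both sets of clones. The lowest was Klf10 with Ccr1 within clones 1 to 13, at 0.465. Without the 2 farthest clones no gene passed with Klf4 after adjustment and the share of genes that passed with Klf2 was 2.51%, and with each set centred no gene passed with Klf10, so the calls of the Klf4 and Klf10 relations named here ended under those settings. In Klf4 the rank correlations were lower than r, with rho = 0.710 for Emc8 (permutation p = 0.00014) and 0.584 for Psma3 (permutation p = 0.00316).

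Neutrophil markers also varied with several Klf genes among monocyte libraries. All 7 passed positively with Klf6, Klf7 and Klf13, 6 of 7 with Klf3 and Klf10, 3 with Klf2 and none with Klf4 or Klf9. Beside these stand the 14.8 to 40.6% of all genes that passed in either direction with the 8 Klf genes. Counting positive relations only, 3013 of 11071 genes passed with Klf6, 2214 with Klf7 and 3055 with Klf13. Progenitor markers passed negatively with Klf2 (4 of 6) and Klf6 (3 of 6), 1 of 6 passed positively with Klf9, and none passed with the other 5 Klf genes. Of 7 monocyte markers 3 passed positively with Klf4, 2 each with Klf2, Klf3, Klf6, Klf10 and Klf13, 1 with Klf7 and none with Klf9. With median-of-ratios scaling the count was 0 with Klf4 and 1 each with Klf2 and Klf13. It stayed at 2 with Klf3, Klf6 and Klf10. Without the 2 farthest clones no gene passed with Klf4. As 1 example of the neutrophil links, Klf6 and S100a8 had r = 0.542 over all clones (permutation p = 0.00593, adjusted p = 0.0191; rho = 0.383, permutation p = 0.0661; 0.507 without the 2 clones farthest in Klf6). For this pair r was 0.586 within clones 15 to 26 and -0.73 within clones 1 to 13. Values within the sets are not given here for the other neutrophil links. Klf6 and Zfp36 had 0.969 within clones 15 to 26 and 0.746 within clones 1 to 13. The part of the neutrophil transcripts in the Klf levels was not tested.

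Of the 9 other Klf genes, 3 passed the filter on low values. Klf12, a repressor that binds CtBP like Klf3, had a higher mean than any of the 8 in both states, with 18.3 to 69.2 TPM in monocyte libraries (median 35.01), against 7.71 to 39.5 TPM in progenitor libraries (median 18.9). It rose by 0.78 (SE 0.10, limma adjusted p = 7.27e-08) and was higher in 22 of 24 clones. Klf11, the relative of Klf10, rose by 0.35 (limma adjusted p = 0.00558), and Klf16 fell by 0.41 (limma adjusted p = 0.000662). Klf5, named here after its values were seen, lay under the filter and was not tested. It had 1.26 ± 0.884 TPM in monocytes and 0.0361 ± 0.0420 TPM in progenitors (SD, n = 24 each) and was higher in 24 of 24 clones. Klf1 and Klf8 lay under the filter too and went the other way. Klf1 averaged 0.0361 TPM in monocytes and 0.668 TPM in progenitors and was lower in the monocytes of 22 of 24 clones. Klf8 averaged 0.266 TPM in monocytes and 0.692 TPM in progenitors and was lower in the monocytes of 19 of 24 clones. Klf14, Klf15 and Klf17 were listed at 0 in every library. Of 4 Sp genes tested, Sp3 (1.12, limma adjusted p = 0.000257) and Sp1 (0.90, limma adjusted p = 0.0349) rose and none fell.

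Among the routes known to switch on Klf genes, 5 of 7 genes of the Erk5 and MEF2 route rose and none fell, where 32.4% of all genes rose. Mapk7, which encodes Erk5, ran from 0.160 to 110 TPM in monocyte libraries (median 12.2), against 0 to 7.42 TPM in progenitor libraries (median 1.97). It was higher in 24 of 24 clones, by 2.11 on the log2 scale (SE 0.23, limma adjusted p = 3.83e-09), and its partner Mef2a rose by 1.54 and the upstream kinase gene Map3k3 by 1.43. Of 7 genes of the transforming growth factor beta route 3 rose and none fell, namely the receptors Tgfbr2 (1.12) and Tgfbr1 (0.48) and the signal carrier Smad3 (0.86), a share near that of all genes. Of 5 genes tested of the glucocorticoid route 2 rose and none fell, namely the phosphatase gene Dusp1 (1.48) and Tsc22d3 (1.04), again near that share. Dusp1 also stands among the immediate early genes below. Zbtb16, listed for this route but too low on average to be tested, went the other way. It averaged 0.217 TPM in monocytes and 1.10 TPM in progenitors and was lower in the monocytes of 23 of 24 clones. The receptor gene Nr3c1 itself did not pass (0.35, limma adjusted p = 0.137).

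Genes of proteins that bind Klf factors were set beside the 32.4% of all genes that rose and the 36.5% that fell. Of 9 corepressor genes Hdac2 (-1.30) and Hdac3 (-0.25) fell, Sin3b (0.29) rose and the other 6, CtBP and Sin3a genes among them, did not pass. For 2 of the 9 the change differed between the sets, where 9.79% of all genes did with a negative sign. Sin3a changed by -0.89 in clones 15 to 26 and 0.54 in clones 1 to 13 (difference -1.43, limma adjusted p = 0.0447). Hdac1 changed by -0.57 in clones 15 to 26 and 0.09 in clones 1 to 13 (difference -0.65, limma adjusted p = 0.0402). All 4 coactivator genes rose, with Ep300 at 1.29, Kat2b at 1.06 and Crebbp at 0.93. Ep300 and Crebbp differed between the sets as well: the change was -0.18 in clones 15 to 26 and 2.52 in clones 1 to 13 for Ep300 (difference -2.70, limma adjusted p = 0.00425), and -0.01 in clones 15 to 26 and 1.73 in clones 1 to 13 for Crebbp (difference -1.74, limma adjusted p = 0.00149). Of 3 ubiquitin ligase genes Wwp1, known to act on Klf2 protein, rose by 1.28 and Siah1a fell by 0.47.

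Of 9 genes reported elsewhere as targets of Klf factors 7 rose and none fell, where 32.4% of all genes rose. Among them were the lectin gene Lgals3 (6.73) and the mannose receptor gene Mrc1 (2.24). Mrc1 and Arg1 averaged 0.336 and 0.111 TPM in progenitors, so they passed the filter through monocytes. The S1P receptor gene S1pr1, a target of Klf2 in T cells, had 2.66 TPM in monocytes and 2.85 TPM in progenitors on average and did not pass (-0.14, limma adjusted p = 0.519). All 12 immediate early genes tested rose, led by Atf3 (3.97), Fos (2.94) and Btg2 (2.67). Btg2, Egr2 and Nr4a1 averaged 0.616, 0.298 and 0.787 TPM in progenitors, so they passed the filter through monocytes. Fosb, also listed, lay under the filter and averaged 0.0784 TPM in monocytes and 0.191 TPM in progenitors. It was lower in the monocytes of 17 of 24 clones. Summed over all 13 listed, levels ran from 80.5 to 424 TPM in monocyte libraries (median 204), against 14.8 to 74.0 TPM in progenitor libraries (median 57.6), with no overlap of the groups. Among monocyte libraries 8 of the 12 tested passed positively with Klf6, 4 with Klf2, 4 with Klf7, 3 with Klf3, 2 each with Klf10 and Klf13 and 1 each with Klf4 and Klf9, beside the shares over all genes given above. With Klf9 1 more passed negatively. Klf6 and Fos had r = 0.773 (permutation p = 1e-05, adjusted p = 0.000189) and rho = 0.715 (permutation p = 0.00015), with 0.688 within clones 15 to 26, 0.923 within clones 1 to 13 and 0.652 without the 2 clones farthest in Klf6.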

How the data were processed

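TPM of 48 libraries (24 clones, a monocyte and a progenitor library each) were used. The authors deposited 1 table of TPM per gene symbol, with 34643 rows, of which 26 named as calendar dates were left out; the deposited columns were mapped to samples by their names. Salmon made the values on build mm10, per the submitters' processing notes. Which annotation release they used is not given in these sources. TPM are relative to the library total, so a class of transcripts that grows lowers all others, and no counting error could be given.

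State changes and their difference between sets of clones were fitted in R 4.3.3 with limma 3.58.1 to log2 values after adding 1 to each TPM, blocked by clone, with the prior variance trended on mean level, two-sided and Benjamini-Hochberg adjusted over 11072 genes with a mean of at least 1 TPM. Clones are paired by the design text and the clone number in the titles: after subtracting state means, the 2 libraries of a clone correlated above 0.1 in 18 of 24 clones, and after centring each set in 12, namely 10 of 11 among clones 15 to 26 and 2 of 13 among clones 1 to 13. Carry-over used 10473 genes with an SD of at least 0.25 on the log2 scale in both states. Python 3.11.15, numpy 2.4.6, scipy 1.17.1 and numba 0.67.0 ran the permutations. The state fit, the carry-over test and the relation test were run on simulated data. The fit of the difference between sets, the fits within a set and the set-centred permutations were not. Coordinates are from the GENCODE annotation of GRCm38.

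The 8 genes, the lists, the sets of clones and the tests were chosen with earlier results of these data known. Named genes were the 8, from each list up to 3 passing genes with the largest change and any that passed against most of its list, and for each Klf gene the 3 most like it; a few genes that the rule names are not reported here. Col1a1, Cma1, Ms4a2, Klf1, Klf5, Klf8, Sin3a, Hdac1, Zbtb16, Arg1, Egr2, Nr4a1 and Fosb were named after their values were seen. Alternatives were other pseudocounts, filters, scalings, subsets of clones and fits without the block.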

Additional observations from a re-analysis of the deposited data

Results flagged for a closer look

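The change of Klf13 between states was smaller in clones 15 to 26 than in clones 1 to 13, by -1.26 on the log2 scale (limma interaction, adjusted p = 0.0193). The change of Klf10 was smaller there too, by -1.02 (limma interaction, adjusted p = 0.0467). Both stand here because a test of the difference itself passed between the sets. Paired libraries show it: Klf10 was lower in the monocyte than in the progenitor of clones 18, 19, 22 and 23 of the set 15 to 26, and of clone 8 alone in the set 1 to 13. Klf13 was higher in the monocyte of all 24 clones, so the sets differ in the size of its rise.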

How the results depend on the processing

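TPM keep no depth, so low levels such as those of Klf4, Klf7 and Klf9 carry an unknown counting error, and the labels name no batch behind the sets of clones. All 8 state calls kept their direction and stayed past the threshold under each alternative that tested them, except Klf10 in clones 15 to 26 only (0.41). With no filter on low values 6152 genes fell; with a mean of at least 5 TPM 5 Klf genes were tested and 0 fell; in clones 15 to 26 only 1974 genes rose. No replicate block gave 3512 genes higher and 3924 lower, the same 8 state calls, and set differences of -1.02 for Klf10 (limma adjusted p = 0.0268) and -1.26 for Klf13 (limma adjusted p = 0.0230). The split of 3584 higher and 4039 lower genes was 2970 higher and 4822 lower without mitochondrial, Gm and pseudogene entries, which moved the median change of all genes to -0.25. That rescaling gave mean levels of 3.27 TPM for Klf4 and 18.6 TPM for Klf10 in monocytes, and in progenitors 5.50 TPM for Klf3, 0.750 for Klf4, 7.14 for Klf6, 0.937 for Klf7, 4.201 for Klf9, 10.2 for Klf10 and 7.64 for Klf13.

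For the difference between sets, 184 genes were positive and 1084 negative: median-of-ratios scaling gave 962 positive and 1005 negative, and leaving out clones 21, 24 and 26 gave 373 positive, 3276 negative and 5 Klf genes. With 1 clone left out in turn (chosen after seeing the data) the counts ran from 111 (without clone 18) to 336 (without clone 21) positive, 614 (without clone 18) to 2793 (without clone 24) negative and 1 to 5 Klf genes. State calls under the same removals ran from 3466 to 3740 higher and 3875 to 4374 lower, with 7 Klf genes higher and 1 lower throughout. Carry-over called 454 genes, 42 with the sets centred, 41 in clones 15 to 26 and 0 in clones 1 to 13, where 561 had an unadjusted p under 0.05. Klf pairs numbered 5 in monocytes without the 2 farthest clones, and with median-of-ratios scaling 0 positive and 2 negative in progenitors. The cause of these shifts was not tested.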

Other observations

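Among the clones with the most Klf transcript, the monocyte library of clone 20 had the highest Klf13 (50.2 TPM) and Klf7 (7.74 TPM) and the second highest Klf2 (69.6 TPM), Klf3 (28.9 TPM) and Klf6 (62.1 TPM) of all 24. Not every Klf gene was high in it: Klf4 (0.601 TPM), Klf9 (0.230 TPM) and Klf10 (8.14 TPM) lay below their medians over monocyte libraries. The progenitor library of clone 20 held the second highest Klf2 (2.77 TPM) and Klf7 (1.28 TPM). Its sum of neutrophil markers was the highest of all progenitor libraries (10686 TPM, median 26.8). The monocyte library of clone 22 had the lowest Klf2 (3.90 TPM), Klf6 (6.86 TPM) and Klf7 (1.17 TPM), and its progenitor library had the highest Klf9 (4.25 TPM) and the second highest Klf10 (7.74 TPM) and Klf13 (8.12 TPM). Among monocyte libraries, that of clone 22 also had the highest sum of progenitor markers (8890 TPM). The part of this in its Klf levels was not tested. The progenitor library of clone 24, the one with the fewest genes at 1 TPM or more, was lowest in Klf3, Klf6, Klf9, Klf10 and Klf13.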
